A study of Sus scrofa with 24 samples.

Results

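The mitochondrial ribosomal protein genes were followed in the hippocampus of neonatal piglets. They were taken as every gene whose pig symbol starts with MRPL or MRPS and a digit, a rule that uses the name alone. Of the 38882 genes listed in each library, 72 carried such a symbol, and 68 of these were among the 16326 genes that passed the filter on low counts and were tested. The name table held 77 such symbols, and the other 5 (MRPL23, MRPL34, MRPL41, MRPL57 and MRPL58) were not analysed here. By textbook assignment 45 of the 72 belong to the large subunit and 26 to the small subunit, and MRPS36 was left unclassified because its protein is now assigned to the alpha-ketoglutarate dehydrogenase complex.

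Whole hippocampus RNA was sequenced from 24 piglets, 1 library each, in 4 groups of 6. All piglets were PIC Camborough by PIC 359 crosses sampled at postnatal day 14, and sex was balanced between groups. Appropriate for gestational age (AGA) and small for gestational age (SGA) littermates of the same sex were raised in pairs from 12 litters, and both piglets of a pair received the same formula, either control (CON, triglyceride oils) or hydrolyzed fat (HF, in which part of the triglyceride was replaced by free fatty acids, monoacylglycerol palmitate and lecithin at an equal total fat). The groups were thus AGA CON, SGA CON, AGA HF and SGA HF, with replicates 1 to 3 of each in a first cohort and 4 to 6 in a second. Each SGA piglet thus had a littermate control, whereas diet differed between 6 HF and 6 CON litters.

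Mitochondria carry their own ribosome, which translates the few messages encoded by the mitochondrial genome, all of them subunits of oxidative phosphorylation complexes. Its proteins are encoded in the nucleus, made on cytosolic ribosomes and imported. Some descend from bacterial ribosomal proteins and others were added during the evolution of mitochondria, and inherited defects in several cause disease of brain and heart in people. Because the tissue was sequenced in bulk, fewer cells of a type and less RNA per cell cannot be told apart in any value below.

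Reads assigned to listed genes ranged from 6017336 to 9284355 per library with a median of 7346072.5. Levels are given as CPM, the reads of a gene scaled to all assigned reads of its library, after TMM normalization, and 3 counts corresponded to 0.323 to 0.499 CPM depending on the library. Markers of hippocampal cell types were present in every library, with GFAP of astrocytes at 6724 to 11030 CPM, SLC17A7 of excitatory neurons at 1575 to 4949 CPM and MBP of myelin at 3753 to 10180 CPM. Choroid plexus markers summed to 34.93 to 175.2 CPM. Pituitary markers summed to 19.16 to 368.6 CPM, with the highest value in SGA HF replicate 4, in which GH1 stood at 305.4 CPM. At their highest over the libraries POMC reached 48.65 CPM, PRL 7.357 and CGA 7.119. POU1F1, another pituitary marker, was at 0 in all of them.

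Mitochondrial ribosomal protein genes were expressed at moderate levels. To compare genes, levels were divided by the exonic length in kilobases (CPM per kb). The median of the 68 members was 25.86 CPM per kb with quartiles of 16.39 and 47.78, and 78.8% of all genes tested lay below that median. The median was 35.03 CPM per kb for the 43 large subunit members and 24.93 for the 24 small subunit members. Before division by length the medians were closer, at 31.7 and 30.46 CPM. The libraries were made from polyadenylated RNA. Whether RNA quality altered levels per kb between long and short gene models was not tested. For comparison, the median level was 390.1 CPM per kb over 75 cytosolic ribosomal protein genes and 104.4 over 38 complex I subunit genes.

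The 5 highest members were MRPL40 at 123.3 ± 12.12 CPM per kb (SD, n = 24), MRPL28 at 117.8 ± 13.9, MRPL12 at 116.3 ± 21.93, MRPS26 at 113.7 ± 10.95 and MRPS15 at 102.7 ± 13.68. They did not share a class. MRPL28, MRPS15 and the stalk protein MRPL12 have bacterial relatives, and MRPL40 and MRPS26 are specific to mitochondria. The exons annotated to MRPL12 summed to only 387 bases, which raises its value per kb. At the low end stood MRPS12, a protein near the decoding centre, at 2.182 ± 0.796 CPM per kb, MRPL22, which lines the exit tunnel, at 1.589 ± 0.492, and MRPS6 at 0.3795 ± 0.0747. The exons annotated to MRPS6 summed to 15390 bases, which lowers its value per kb, and 0.669% of them overlapped another listed gene on the same strand. Among adjacent members in the order of levels, 63 of 67 pairs differed by less than the larger of their SDs. The 4 larger steps were from MRPL13 to MRPS17, from MRPS35 to MRPL44, from MRPL39 to MRPS12 and from MRPL22 to MRPS6.

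**Figure D1:**
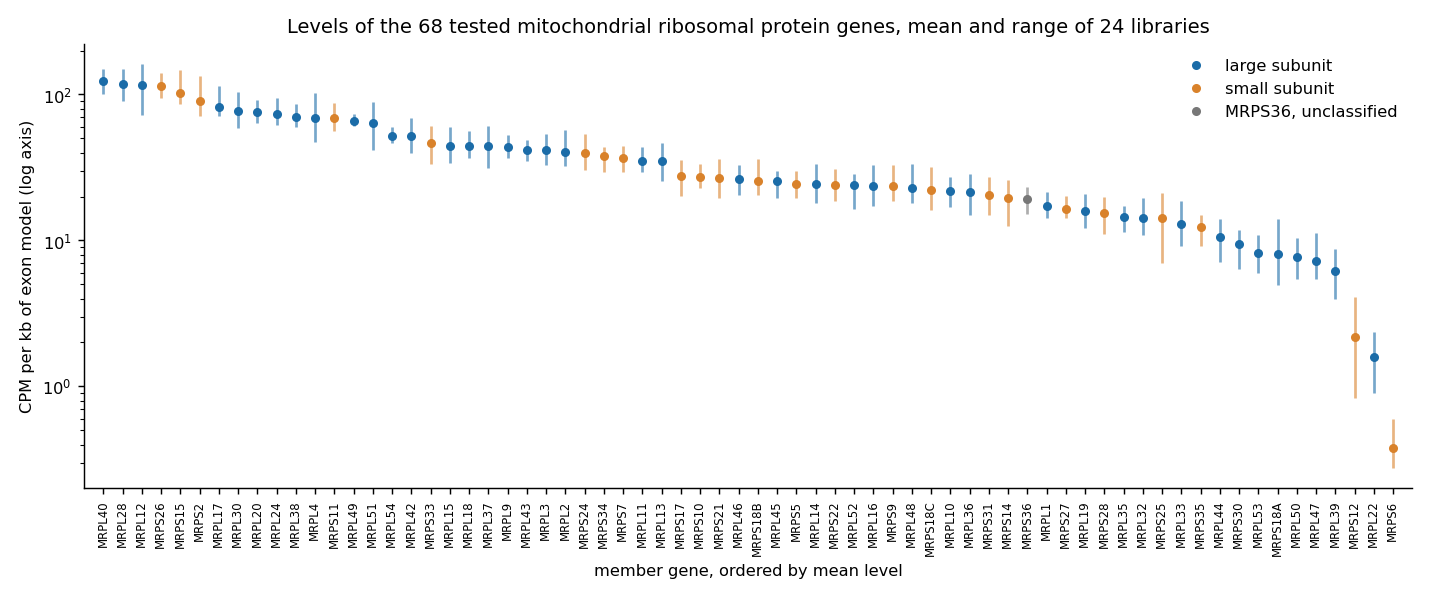
Level of each of the 68 members in CPM per kb on a log axis, ordered by mean and coloured by subunit. Points are means and lines run from the lowest to the highest of 24 libraries. Large and small subunit members are interleaved, and MRPS12, MRPL22 and MRPS6 lie apart at the low end.

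The 4 members that failed the filter were MRPL27, MRPL55, MRPS16 and MRPS23, each with 0 reads in all 24 libraries. Taken alone, a count of 0 in the shallowest library allows a level of up to 0.499 CPM there, by counting error only. With 0 reads in all 24 libraries, counting error allows a lower mean level than that for these 4 members. Their gene models are those of Sscrofa10.2, and they shared 0 exonic bases with other listed genes on the same strand. MRPS16, mutated in human mitochondrial disease, was thus not measured with this gene model.

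The protein families of the particle illustrate the spread of levels. The stalk, which recruits translation factors to the ribosome, has MRPL12 at 116.3 CPM per kb and its base proteins MRPL10 at 21.84 and MRPL11 at 35.24. Before division by length their mean levels were closer, at 45.02 CPM for MRPL12, 36.45 for MRPL10 and 44.34 for MRPL11. Their annotated exons summed to 387, 1669 and 1258 bases in that order. The 3 paralogs that descend from a single bacterial protein stood at 8.031 CPM per kb for MRPS18A, 25.52 for MRPS18B and 22.14 for MRPS18C, and MRPS18A sits in the large subunit. MRPL45, which lies next to the inner membrane at the tunnel exit, had 25.41 CPM per kb. Among genes of human disease, MRPL3 had 41.41 CPM per kb, MRPS34 38.08, MRPS22 24.1 and MRPL44 10.5.

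Levels varied little between piglets. The SD of log2 CPM over the 24 libraries had a median of 0.196 over the members and of 0.2773 over all genes tested. It was 0.1799 over the cytosolic ribosomal proteins and 0.1699 over complex I, so low spread is not particular to the members. The median level was also lower over all genes tested, at 13.39 CPM against 31.05 for the members. The steadiest members were MRPL49 with an SD of 0.083, MRPL54 with 0.102 and MRPS27 with 0.123, and the level of MRPL49 ran only from 104.8 to 125.8 CPM. The most variable were MRPS12 with an SD of 0.458, MRPL22 with 0.413 and MRPS18A with 0.357. Of these, MRPS12 had 4 to 19 counts per library and MRPL22 had 9 to 32, so that their spread includes the counting error of few reads.

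Summed over the 72 members, the level on the control formula was 2831 ± 191 CPM in AGA (SD, n = 6) and 2867 ± 237 in SGA, and on HF it was 2968 ± 261 in AGA and 2780 ± 130 in SGA. The libraries ranged from 2508 to 3098, from 2650 to 3209, from 2597 to 3324 and from 2663 to 3013 CPM in the same order. All 4 groups overlapped.

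The members tended to vary together between piglets. After subtracting group means, 1772 of the 2278 pairs of members had a correlation above 0 over the 24 libraries, with a median of 0.235. The median was 0.278 for pairs within the large subunit, 0.162 within the small subunit and 0.215 between subunits. It was 0.629 for pairs of cytosolic ribosomal protein genes and 0.446 for pairs of complex I genes. The mean of the members correlated at 0.886 with the mean of complex I and at 0.518 with that of the cytosolic ribosomal proteins. MRPL18 (0.874) and MRPL43 (0.872), chosen after their values were seen, were most like the mean of the other members, and MRPL50 (-0.229), MRPL22 (-0.117) and MRPS34 (-0.0688) were least like it. These correlations are descriptions, since the points share library depth and tissue composition.

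The first question was whether birth size alters these genes. In the fit over all 24 libraries with sex and 5 surrogate variables, SGA piglets had slightly lower values for most members, but no single member passed the threshold of FDR p below 0.4 that the study used. Of the 68 members, 51 had a log2 fold change below 0 for size, against 50.8% of all genes tested, and the median was -0.0567 against -0.00225 over all genes. By edgeR's quasi-likelihood test 0 members were called, where 0.478% of all genes were, and the smallest adjusted p was 0.421. At an unadjusted p under 0.05 there were 10 members lower and 0 higher in SGA, or 14.7% of the members against 4.95% of all genes. By limma voom 0 members were called, where 36 genes were called higher and 17 lower. It had 11 members lower at an unadjusted p under 0.05, against 838 of the 16326 genes. DESeq2 had 5 such members, against 584 of all genes, and called 1, MRPL12, where it called 1.29% of all genes. When the p-values were adjusted over the size contrast alone, edgeR called 4 members lower (MRPL12, MRPL28, MRPL39 and MRPS26), against 3.31% of all genes.

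Both subunits had medians below 0. The median log2 fold change for size was -0.0641 for the large subunit, with 34 of 43 members below 0, and -0.0376 for the small subunit, with 16 of 24. It was -0.0328 for members with bacterial homologues and -0.0658 for those specific to mitochondria. The difference between these classes was not tested. Each cohort was also fitted alone, with sex and without surrogate variables. The median for size over all members was then -0.0986 in the first cohort and -0.00884 in the second. Over both cohorts it was -0.0465 with sex and cohort and no surrogate variables. The difference between cohorts was not tested.

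**Figure D2:**
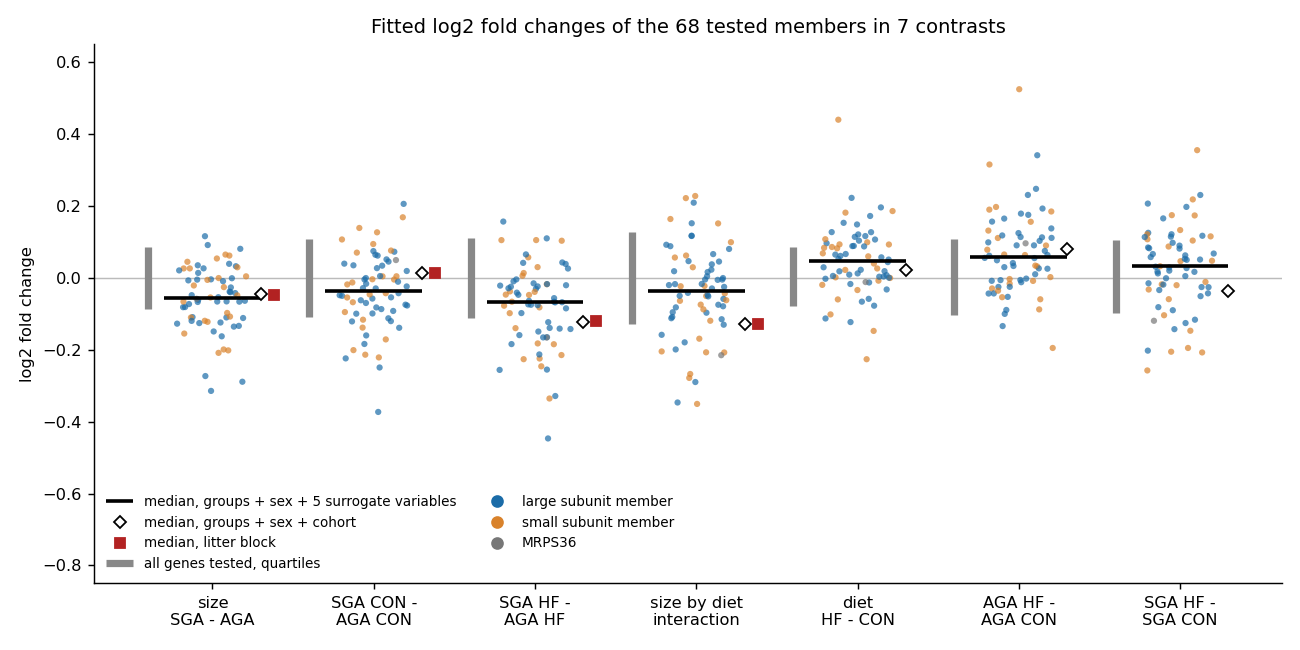
Log2 fold changes of the 68 members in 7 contrasts, 1 point per member. The black line is the median in the fit with surrogate variables, the open diamond the median with sex and cohort only, the red square the median with litter as a block and the grey bar the quartiles of all genes tested. The medians for size and for SGA HF against AGA HF lie below 0 in each of these fits, whereas the median for SGA CON against AGA CON changes sign between them.

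MRPL12, the L7/L12-type stalk protein that recruits translation factors, had the smallest p for size. Its annotated exons lie in 3 parts with 387 bases in all on an unplaced sequence of Sscrofa10.2, from 7994 to 8566. In AGA CON it ranged from 41.84 to 62.45 CPM with a median of 45.82, and in SGA CON from 27.91 to 46.8 with a median of 42.76. In AGA HF it ranged from 35.63 to 62.34 CPM with a median of 51.53, and in SGA HF from 37.35 to 44.84 with a median of 39.57. The groups overlapped on both diets, and the SGA median was the lower on each. The log2 fold change for size was -0.29 ± 0.078 (SE, a difference of -18.2%, edgeR adjusted p = 0.421). With litter as a block and without surrogate variables, a fit that compares each SGA piglet with its own littermate, MRPL12 fell by 0.29 ± 0.085 on the log2 scale (adjusted p = 0.344). It was the 1 member called in that fit, where 1.52% of all genes were called lower. Leaving out each litter in turn, it was called in 6 of 12 fits with surrogate variables (adjusted p from 0.0936 to 0.688) and in 4 of 12 with the litter block (adjusted p from 0.24 to 0.531). The SGA littermate was the lower in 9 of 12 litters, 5 on CON and 4 on HF. The proteins at the base of the stalk gave other values. MRPL10 had medians of 35.22 CPM (AGA) and 35.57 (SGA) on CON and of 36.99 (AGA) and 34.9 (SGA) on HF. MRPL11 had a log2 fold change for size of 0.09 ± 0.0535 (adjusted p = 0.797), and whether it differs from MRPL12 was not tested.

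The other members with the smallest p for a lower level in SGA were MRPL28, MRPL39 and MRPS26. MRPL28, a large subunit protein encoded on chromosome 3 (Sscrofa10.2, 41094504 to 41097526), had medians of 169.0 CPM (AGA) and 162.0 (SGA) on CON and of 169.0 (AGA) and 160.9 (SGA) on HF, with overlapping groups. Its log2 fold change for size was -0.15 ± 0.052 (adjusted p = 0.581), and with the litter block it was -0.08 ± 0.0584 (adjusted p = 0.788). MRPL39, specific to mitochondria, was expressed at only 6.659 to 14.55 CPM and had a log2 fold change of -0.31 ± 0.12 (adjusted p = 0.63), which was -0.125 ± 0.111 with the litter block (adjusted p = 0.825). MRPS26 ranged from 100.1 to 148.0 CPM and had a log2 fold change of -0.11 ± 0.0458 (adjusted p = 0.666). In the second cohort alone, fitted without surrogate variables, MRPL39 and MRPS26 stood at 0.0363 and 0.00465 for size, close to 0.

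Members with higher values in SGA were fewer, and 0 of them had an unadjusted p under 0.05. The smallest p-values among them belonged to MRPL11 (above), MRPL9 with a log2 fold change of 0.08 ± 0.0627 (adjusted p = 0.863), MRPL47 with 0.12 ± 0.105 (adjusted p = 0.889) and MRPL4, an exit tunnel protein, with 0.04 ± 0.0411 (adjusted p = 0.909). With the litter block the values were 0.038 ± 0.0671 for MRPL9, 0.0165 ± 0.104 for MRPL47 and 0.139 ± 0.0662 for MRPL4, with adjusted p from 0.608 to 0.983. MRPL4 had medians of 123.8 CPM in AGA CON and 128.9 in SGA CON.

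Littermates differed in both directions. Expressed as SGA minus AGA in log2 CPM, the median over the 68 members was -0.143, 0.141, -0.104, 0.0992, -0.132 and 0.231 in CON pairs 1 to 6. In HF pairs 1 to 6 it was -0.201, -0.326, 0.0848, -0.0788, -0.129 and -0.0329. The SGA littermate thus had the lower median in 3 of 6 CON litters and in 5 of 6 HF litters. The mean over litters was 0.0154 ± 0.161 on CON (SD, n = 6) and -0.114 ± 0.141 on HF, and the intervals of 1 SD overlapped. In HF pair 2, the pair farthest below 0, the cytosolic ribosomal proteins (-0.497) and complex I (-0.321) were also lower in the SGA piglet.

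**Figure D3:**
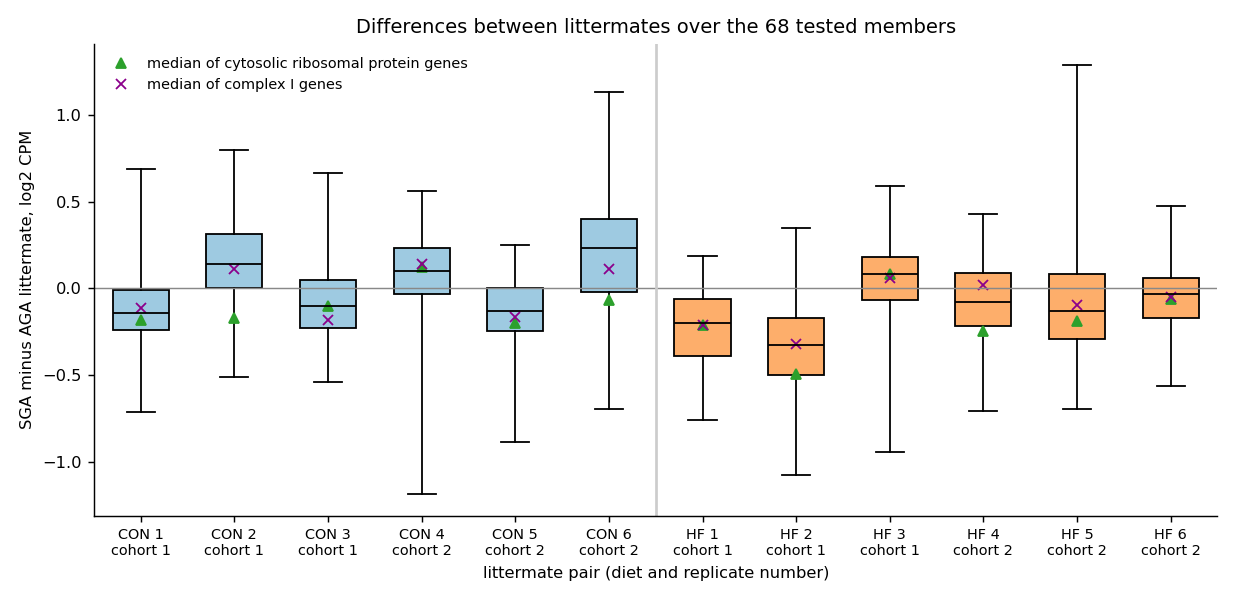
SGA minus AGA difference in log2 CPM for each of the 12 littermate pairs, with a box over the 68 members (median, quartiles, whiskers to the lowest and highest), a green triangle for the median of cytosolic ribosomal protein genes and a purple cross for that of complex I genes. The members' median lies below 0 in 3 CON and 5 HF pairs, and HF pair 2 is the lowest at -0.326.

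Counted by gene, 45 members were lower in the SGA piglet in more HF than CON litters, 12 in fewer and 11 in the same number, whereas over all genes tested 37.1% were lower in more HF litters and 39.0% in fewer. No member was lower in SGA in all 12 litters. The number of litters with the lower value in SGA ran from 3 for MRPL49, the steadiest gene, to 10, with a median of 7. MRPL3, MRPL50 and MRPS21 were lower in SGA in 10 of 12 litters, 5 on each diet. These 3 are 4.41% of the members, against 4.86% of all genes that were lower in at least 10 litters, so their number is near the background. No member was higher in SGA in at least 10 litters, against 3.8% of all genes.

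MRPS21, a small subunit protein, ranged from 22.07 to 28.7 CPM in AGA CON (median 22.59) and from 17.08 to 30.57 in SGA CON (median 21.48). On HF it ranged from 21.35 to 30.85 CPM in AGA (median 24.1) and from 16.82 to 25.5 in SGA (median 20.03). Its log2 fold change for size was -0.21 ± 0.101 (adjusted p = 0.736), and -0.22 ± 0.0721 with the litter block (adjusted p = 0.439). MRPL3, a gene of human cardiomyopathy, had medians of 62.49 CPM (AGA) and 57.15 (SGA) on CON and of 67.78 (AGA) and 59.7 (SGA) on HF. Its log2 fold change for size was -0.07 ± 0.0479 (adjusted p = 0.844), and -0.15 ± 0.0594 with the litter block (adjusted p = 0.541). MRPL50 stood between 5.96 and 11.35 CPM in all libraries.

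On the control formula alone, SGA and AGA piglets were close. The median log2 fold change of the members was -0.0364, with 45 of 68 below 0, and -0.00042 over all genes. edgeR called 0 members, against 0.129% of all genes, as did voom and DESeq2. At an unadjusted p under 0.05 there were 6 members lower, or 8.82% against 3.47% of all genes. There were 5 by voom and 6 by DESeq2, against 598 and 415 of the 16326 genes. Of all genes voom called 6 higher and 4 lower, and DESeq2 called 27 and 30. The sign of the median was not stable, since it was 0.0128 with the litter block, where 37 of 68 members lay above 0. The block called 0 members, against 62 genes higher and 143 lower of the 16326. At an unadjusted p under 0.05 it had 1 member higher and 2 lower, against 683 and 728 genes. No member had every SGA CON library apart from every AGA CON library, which 0.368% of all genes did. MRPL54, with the smallest p for a lower level, had medians of 99.51 CPM in AGA CON and 91.74 in SGA CON (log2 fold change -0.12 ± 0.0502, adjusted p = 0.665). MRPS31, with the smallest p in the other direction, had 29.45 and 31.7 CPM (0.17 ± 0.0984, adjusted p = 0.796).

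On the hydrolyzed fat formula most members had lower values in SGA than in AGA piglets. The median log2 fold change of SGA HF against AGA HF was -0.0667, with 54 of 68 members below 0, against -0.00323 over all genes. edgeR called 0 members, against 0.288% of all genes, and had 7 members lower at an unadjusted p under 0.05, or 10.3% against 3.25% of all genes. voom and DESeq2 also called 0, with 6 and 5 members lower at an unadjusted p under 0.05, against 538 and 344 of the 16326 genes. Of all genes voom called 20 higher and 4 lower, and DESeq2 called 115 and 20. With litter as a block the median was -0.12 with 59 of 68 members below 0. There 10 members were lower at an unadjusted p under 0.05, against 674 of the 16326 genes. The block called 2 members, MRPS22 and MRPS18C, where 0.472% of all genes were called lower. Without surrogate variables the cohorts alone gave medians of -0.169 and -0.0666, and both together -0.122 with sex and cohort. The subunits had like medians in the litter block, -0.116 for the large and -0.12 for the small.

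MRPS22, a small subunit protein whose gene is mutated in human mitochondrial disease (chromosome 13, 87874586 to 87894354), was highest in AGA HF. It ranged from 30.5 to 36.31 CPM in AGA CON (median 31.66), from 31.7 to 36.62 in SGA CON (34.4), from 34.34 to 43.59 in AGA HF (36.82) and from 26.05 to 36.58 in SGA HF (31.13). The HF groups overlapped only between 34.34 and 36.58 CPM. The log2 fold change of SGA HF against AGA HF was -0.22 ± 0.0804 (a difference of -14.4%, adjusted p = 0.588). With the litter block MRPS22 fell by 0.29 ± 0.0827 (adjusted p = 0.319), and the SGA littermate was the lower in 5 of 6 HF litters and in 1 of 6 CON litters. Leaving out each litter in turn, it was called in 5 of 12 fits with the block (adjusted p from 0.147 to 0.593) and in 2 of 12 with surrogate variables.

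MRPS18C, 1 of the 3 paralogs of the bacterial S18 protein (chromosome 8, 144316519 to 144322536), was the other member called with the litter block. It ranged from 10.63 to 19.13 CPM in AGA CON (median 13.34), from 12.68 to 15.58 in SGA CON (13.61), from 13.39 to 20.94 in AGA HF (17.54) and from 10.62 to 16.36 in SGA HF (12.95). The log2 fold change on HF was -0.34 ± 0.119 (adjusted p = 0.585), and with the litter block it fell by 0.41 ± 0.123 (adjusted p = 0.374), a difference of -24.6%. It was lower in the SGA piglet in all 6 HF litters, by 0.152 at the least and 0.674 at the most on the log2 scale, and in 3 of 6 CON litters. The call held in 4 of 12 fits with the block that left out a litter (adjusted p from 0.288 to 0.572). Its paralogs had overlapping groups: MRPS18A ranged from 3.458 to 9.85 CPM and MRPS18B from 15.89 to 28.29 CPM over all libraries.

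MRPS34, a gene of human Leigh syndrome (chromosome 3, 41658025 to 41659263), was the 1 member whose HF groups did not overlap. It ranged from 39.37 to 44.09 CPM in AGA HF (median 40.41) and from 32.58 to 38.39 in SGA HF (36.53), and every SGA HF library lay below every AGA HF library, as for 0.153% of all genes. On CON it ranged from 36.04 to 42.94 CPM in AGA (38.26) and from 29.39 to 43.58 in SGA (37.18). The log2 fold change on HF was -0.23 ± 0.0761 (adjusted p = 0.564), and -0.19 ± 0.0772 with the litter block (adjusted p = 0.541), so that it did not pass the test in either fit. Together with MRPS18C and MRPL43, MRPS34 was lower in SGA in all 6 HF litters, a pattern of 2.52% of all genes, and 0 members were lower in all 6 CON litters. In the other direction MRPS15 had the smallest p on HF (0.10 ± 0.0564, adjusted p = 0.771), which the litter block did not keep (-0.00425).

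**Figure D4:**
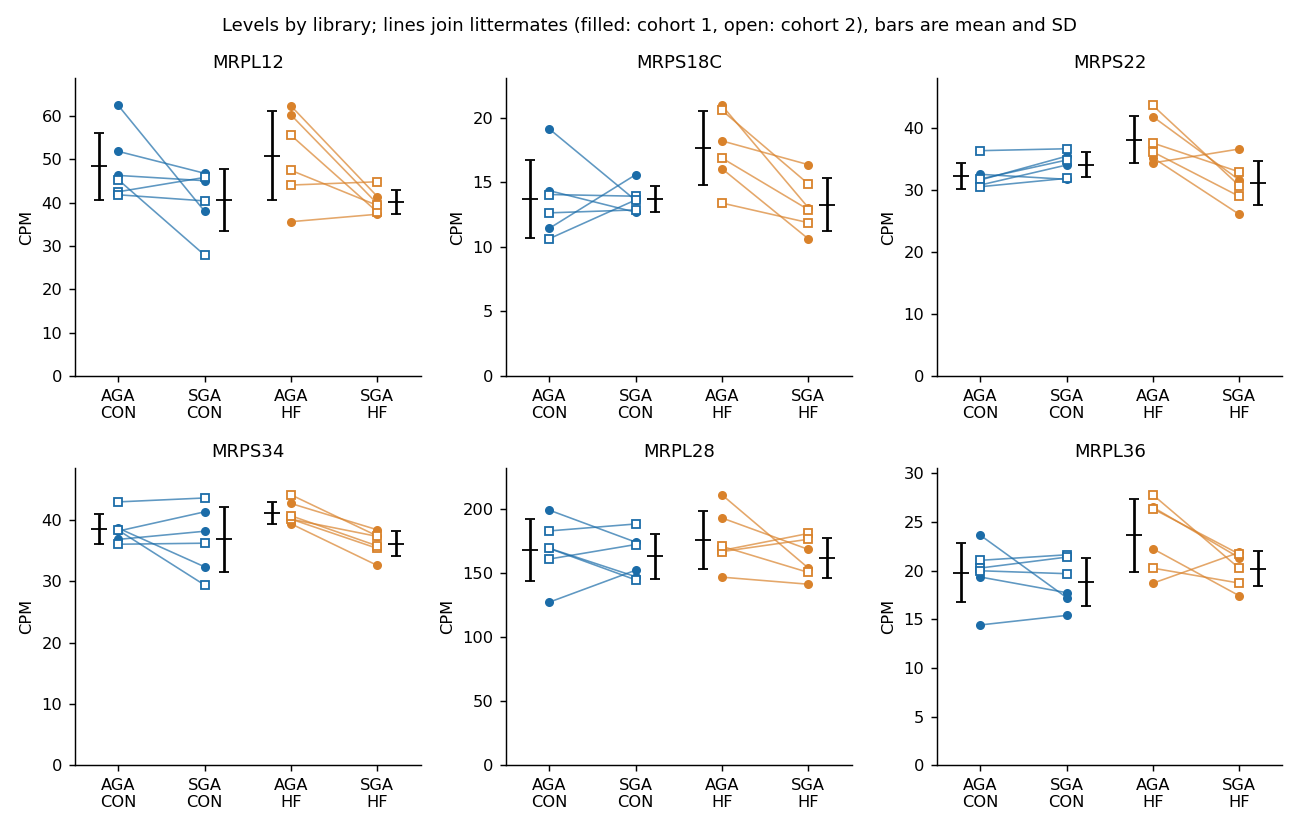
CPM of MRPL12, MRPS18C, MRPS22, MRPS34, MRPL28 and MRPL36 in every library, on axes from 0. Lines join littermates, filled points are the first cohort and open points the second, and bars give the mean and SD of each group of 6. The 6 SGA HF values of MRPS34 lie below the 6 AGA HF values, whereas the groups of the other members overlap.

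Calls across all genes depended on which litter was left out, and most of all on HF pair 3. It was the HF pair in which the members' median was higher in the SGA piglet (0.0848). For size, the share of all genes called ranged from 0.086% to 7.75% over the 12 fits with surrogate variables that left out a litter, with the highest share without that pair. Without it, the litter block called 10 members lower in SGA HF against AGA HF (14.7%, against 1.64% of all genes) and 3 lower for size (4.41% against 2.67%). For size the fit with surrogate variables then called only 1 member, MRPL12, where it called 7.75% of all genes. The fit with surrogate variables called 4 members lower in SGA HF against AGA HF (5.88% against 2.36%), 4 higher for diet (5.88% against 2.3%) and 3 higher in AGA HF against AGA CON (4.41% against 1.58%). It called 2 members in the interaction (2.94% against 2.05%) and 2 in SGA HF against SGA CON (2.94% against 2.4%), shares near the background. Calls thus rose over all genes when HF pair 3 was left out, and whether they rose more among the members was not tested.

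Several other measures were compared between sizes. Summed oligodendrocyte markers, 9 of 9 listed, stood at 21060 ± 2403 CPM (AGA) and 16040 ± 2249 (SGA) on CON and at 20760 ± 4398 (AGA) and 17790 ± 3687 (SGA) on HF. For size, 6 of these 9 had a log2 fold change below 0 in the fit with surrogate variables, with a median of -0.0973 and 0 called (1 at an unadjusted p under 0.05). With the litter block 8 were below 0 with a median of -0.25 and 3 were called lower, where 1.52% of all genes were. Summed neuron markers stood at 8437 ± 1924, 9500 ± 1011, 8205 ± 1394 and 8725 ± 379.8 CPM in the same order of groups. The intervals of 1 SD of the neuron markers overlapped on each diet. Those of the oligodendrocyte markers overlapped on HF but not on CON. Assigned reads per library were 6224421 to 7474872 in AGA HF and 6931595 to 9284355 in SGA HF. On CON the ranges were alike, 6204809 to 8723343 in AGA and 6017336 to 9217875 in SGA. The part of cell composition and of depth in the members' values was not tested.

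Whether the effect of size differed between formulas was tested as an interaction. The median over the members was -0.036 (45 of 68 below 0, all genes 0.003), and with the litter block it was -0.13 (59 of 68 below 0). Without surrogate variables it was -0.131 in the first cohort, -0.127 in the second and -0.13 over both with sex and cohort. edgeR called 0 members with surrogate variables, against 0.049% of all genes. With the litter block it also called 0, against 27 genes higher and 18 lower of the 16326. voom and DESeq2 called 0 members, where voom called 1 gene higher and 0 lower and DESeq2 called 9 and 8. They had 2 and 1 members at an unadjusted p under 0.05. Of the 16326 genes, 335 were higher and 304 lower at that p by voom, and 254 and 197 by DESeq2. With the litter block 2 members were lower and 0 higher at such a p, against 283 and 326 genes. With surrogate variables 2 members had an unadjusted p under 0.05, or 2.94% against 4.01% of all genes, a share below the background. These were MRPS22 with -0.35 ± 0.11 (adjusted p = 0.52) and MRPS7, a protein of the head of the small subunit, with 0.22 ± 0.0994 (adjusted p = 0.706). With the litter block MRPS22 had -0.37 ± 0.117 (adjusted p = 0.407), just outside the threshold. The next smallest p-values belonged to MRPS5 (-0.28 ± 0.137), MRPS34 (-0.21 ± 0.103) and MRPS36 (-0.22 ± 0.112) on the negative side and to MRPS15 (0.15 ± 0.0773), MRPS24 (0.23 ± 0.131) and MRPL49 (0.09 ± 0.0707) on the positive side, with adjusted p from 0.745 to 0.86. The litter block turned the direction of MRPS15 (-0.0926 ± 0.154) and moved MRPS24 to 0.0805 ± 0.159, MRPL49 to 0.0362 ± 0.0944 and MRPS34 to -0.118 ± 0.109. MRPS5, which lies at the mRNA entry, had medians of 39.13 CPM (AGA) and 41.38 (SGA) on CON and of 44.76 (AGA) and 38.58 (SGA) on HF, in overlapping groups.

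The second question was the formula. For diet over both sizes, 50 of the 68 members had a log2 fold change above 0, against 50.8% of all genes, and the median was 0.047 against 0.002 over all genes. edgeR called 0 members, against 0.159% of all genes, with a smallest adjusted p of 0.571. At an unadjusted p under 0.05 there were 6 members higher on HF (MRPL36, MRPL24, MRPL28, MRPL17, MRPL2 and MRPS18B) and 0 lower, or 8.82% against 3.59% of all genes. voom and DESeq2 called 0 members, with 6 and 4 higher at an unadjusted p under 0.05, against 575 and 434 of the 16326 genes. Of all genes voom called 7 higher and 3 lower, and DESeq2 called 48 and 40. When the 2 piglets of a litter were summed, so that the litter was the unit as the formula was given, the median was 0.0186 with 41 of 68 above 0. There edgeR called 0 members, against 0.00613% of all genes, and 0 had an unadjusted p under 0.05, against 3.99% of all genes, with a smallest adjusted p of 0.999. DESeq2 on the litter sums also had 0 of both. With single piglets and no surrogate variables the median was 0.0396 in the first cohort and -0.00579 in the second. Over both it was 0.0212 with sex and cohort.

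MRPL36, a small zinc-binding protein of the large subunit (chromosome 16, 85607048 to 85608340), had the smallest p for diet. It ranged from 14.43 to 23.66 CPM in AGA CON (median 20.14), from 15.41 to 21.64 in SGA CON (18.73), from 18.72 to 27.8 in AGA HF (24.31) and from 17.43 to 21.89 in SGA HF (20.8), and all groups overlapped. Its log2 fold change for diet was 0.22 ± 0.0755 (adjusted p = 0.571), and on litter sums 0.17 ± 0.0905 (adjusted p = 0.999). MRPL24, at the tunnel exit, had 0.15 ± 0.0572, MRPL28 had 0.13 ± 0.0521 and MRPL17 had 0.11 ± 0.0489, with adjusted p from 0.64 to 0.683. On litter sums the values were 0.0938 ± 0.0662 for MRPL24, 0.0262 ± 0.0788 for MRPL28 and 0.0813 ± 0.0617 for MRPL17, each with an adjusted p of 0.999. With lower values on HF stood MRPS6 (-0.23 ± 0.144), MRPL44, an RNase III-like protein (-0.12 ± 0.0981), MRPL52 (-0.11 ± 0.0775) and MRPS31 (-0.10 ± 0.0738), with adjusted p from 0.817 to 0.867. On litter sums these were nearer to 0, at -0.117 for MRPS6, -0.0755 for MRPL44, -0.0819 for MRPL52 and -0.0335 for MRPS31.

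Within each size, the formulas were compared in groups that also enter the comparisons above. For AGA HF against AGA CON the median of the members was 0.0582, with 46 of 68 above 0. edgeR, voom and DESeq2 each called 0 members, against 0.0674% of all genes by edgeR, and each had 4 members higher at an unadjusted p under 0.05, or 5.88% against 2.79% of all genes by edgeR. Of all genes voom called 1 higher and 2 lower, and DESeq2 called 18 and 41. MRPS18C had the smallest p (0.31 ± 0.123, adjusted p = 0.644), and MRPL9 the smallest among the lower ones (-0.13 ± 0.0886, adjusted p = 0.827). No member had every AGA HF library apart from every AGA CON library, as 0.135% of all genes did. For SGA HF against SGA CON the median was 0.0313, with 42 of 68 above 0, and it was -0.0371 in the fit with sex and cohort and no surrogate variables. 0 members were called by the 3 tools, against 0.0919% of all genes by edgeR, and 4 had an unadjusted p under 0.05 in either direction by edgeR and 3 by each of voom and DESeq2 (5.88% against 5.16% of all genes by edgeR). Of all genes voom called 5 higher and 0 lower, and DESeq2 called 24 and 7. MRPS7 had 0.22 ± 0.0721 (adjusted p = 0.56), with medians of 39.38 CPM in SGA CON and 42.23 in SGA HF, and MRPS22 had -0.20 ± 0.0802 (adjusted p = 0.663). No member had every SGA HF library apart from every SGA CON library, as 0.165% of all genes did.

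Genes that work with the mitochondrial ribosome were read in the same fit for size. Of 21 assembly factors tested, 13 had values below 0 with a median of -0.0189. edgeR and voom called 0 of them, DESeq2 called 1, and by edgeR 3 had an unadjusted p under 0.05. The GTPase MTG1 (-0.33 ± 0.0975, adjusted p = 0.486) and the assembly factor MALSU1 (-0.37 ± 0.115, adjusted p = 0.508) had the smallest p-values there. With the litter block MTG1 was called lower (-0.27 ± 0.0762, adjusted p = 0.319). The medians were -0.0138 over 16 mitochondrial tRNA synthetase and amidotransferase genes, -0.0261 over 15 genes of mitochondrial transcription and RNA handling and -0.0056 over 12 translation factors. In these lists edgeR, voom and DESeq2 called 0 genes, and by edgeR 1, 1 and 0 had an unadjusted p under 0.05 (1, 0 and 0 by voom and by DESeq2). Over 4 other proteins of the particle, among them PTCD3 and GADD45GIP1, the median was -0.0776 with 4 of 4 below 0, and 0 were called or had an unadjusted p under 0.05 by the 3 tools. Over the 38 complex I genes it was -0.0632 with 34 below 0. There the 3 tools called 0 genes, and 9 had an unadjusted p under 0.05 by edgeR and voom and 8 by DESeq2. Of the 16326 genes, 915 were higher and 808 lower at that p by edgeR.

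The cytosolic ribosomal proteins were further below 0, with a median of -0.112 and 71 of 75 below 0. Of these, 6 were called lower in SGA (RPL10, RPL12, RPL24, RPL36A, RPL39 and RPS19), where 27 of the 16326 genes were. With the litter block 18 were called lower, against 1.52% of all genes. RPL10, for example, had a log2 fold change of -0.34 ± 0.0623 (adjusted p = 0.217). For diet, 70 of 75 cytosolic ribosomal protein genes had values above 0 with a median of 0.0881 (0 called and 21 at an unadjusted p under 0.05 by edgeR, 0 and 22 by voom, 1 and 21 by DESeq2). So had 33 of 38 complex I genes, with a median of 0.0565 and 1 called, NDUFA12 (0.24 ± 0.0521, adjusted p = 0.224). By edgeR 0.159% of all genes were called for diet, and 586 were higher and 573 lower at an unadjusted p under 0.05. On litter sums, the unit in which the formula was given, NDUFA12 lost its call (0.15 ± 0.0626, adjusted p = 0.999), the medians were 0.0499 over the cytosolic ribosomal proteins and 0.0146 over complex I, and edgeR called 0 genes of either list (0 and 2 at an unadjusted p under 0.05). The difference between these lists and the members was not tested.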

How the data were processed

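The authors trimmed single-end reads with Trimmomatic 0.33, aligned them to Sscrofa10.2 with STAR 2.5.2a and counted them per gene, by strand and over exons, with featureCounts of Subread 1.5.0. The deposited values are these raw counts per gene, 1 file per library. Entrez identifiers were matched to pig symbols (23036 of 38882 genes matched). An entry without an identifier, 0.613 to 1.61% of reads, was left out.

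From the counts, CPM was computed with TMM factors (0.899 to 1.07). Genes with 1 CPM in at least 3 libraries were tested with edgeR 4.0.16 (R 4.3.3, glmQLFit and glmQLFTest) for group, sex and 5 surrogate variables (sva 3.50.0). Benjamini-Hochberg adjustment ran over all genes and 7 contrasts together, with the threshold of 0.4. The common biological coefficient of variation was 0.117. The script was tested on simulated data. Alternatives were limma 3.58.1 voom, DESeq2 1.42.0, other scalings and filters, each litter left out, and litter as a replicate block, with adjustment over its 4 contrasts. Fits without surrogate variables used sex and cohort, or each cohort alone with sex. The pairing of littermates comes from the labels, which name the litter. Deviations of littermates from their group means correlated at 0.0144 to 0.329 over genes. Fold changes are log2 ± SE.

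The members, the gene lists and the tests were chosen with earlier results of these data known. Named members are the 5 highest and 3 lowest per kb; any called; for size, diet and interaction the smallest p (up to 4 each way) and 1 each way per pairwise comparison; the MRPS18 paralogs; members that failed the filter; stalk, membrane and disease proteins; the 3 largest and 3 smallest SDs; and those lower or higher in SGA in at least 10 of 12 litters. Other members were named after their values were seen.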

Additional observations from a re-analysis of the deposited data

Results flagged for a closer look

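Among 144 groups of 6 libraries of the named members, 6 held a library whose gap to the nearest other, as a share of the group's range, exceeded Dixon's critical value, where chance at 5% would give 7.2. MRPL24 was at 88.2 CPM in SGA CON replicate 4, with the others at 70.9 to 75.4. MRPL4 was at 86.2 CPM in AGA CON replicate 2, with the others at 117 to 138, and at 186 CPM in SGA CON replicate 6, with the others at 121 to 141. MRPL50 was at 5.96 CPM in SGA HF replicate 6, below the others at 8.17 to 9.02. MRPS22 was at 36.3 CPM in AGA CON replicate 4, above the others at 30.5 to 32.5. MRPS36 was at 21.2 CPM in SGA CON replicate 6, below the others at 26.1 to 27.7.

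Reads on the entry without an identifier were not used in any comparison. They numbered from 55190 to 101853 per library, and their mean share of reads was 0.959% (AGA) and 0.852% (SGA) on CON and 0.955% (AGA) and 0.803% (SGA) on HF.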

How the results depend on the processing

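Over 38 settings beside the one reported, 365 of 418 summary values and 1083 of 1174 values of named members kept their direction and their side of the threshold. For size, 4 members were called with adjustment over the contrast alone, and 1 each with DESeq2, with no filter on low counts and with the replicate block. The replicate block called 2 members for SGA HF against AGA HF and changed no other call. The median for diet was -0.00579 in the second cohort. For SGA CON against AGA CON it was 0.0135 with sex and cohort only, 0.0452 in the second cohort and 0.0128 with the replicate block. For SGA HF against AGA HF it was -0.169 in the first cohort, and for SGA HF against SGA CON it was -0.0371 with sex and cohort only, -0.0307 in the first cohort and -0.0447 in the second. The second cohort alone gave -0.00571 for MRPL28 and diet, 0.0363 for MRPL39, -0.0482 for MRPL47 and 0.00465 for MRPS26 and size, -0.0325 for MRPL49 and -0.249 for MRPS15 in the interaction, and 0.0608 for MRPL9 in AGA HF against AGA CON. MRPS15 also reversed with sex and cohort only (-0.105 in the interaction, -0.00605 on HF), with the replicate block (-0.0926 and -0.00425) and in the first cohort on HF (-0.0191). The cause was not tested.

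Leaving out each litter in turn, with and without the replicate block, 0 to 3 members were called for size, 0 to 4 for diet, 0 to 2 for the interaction, 0 to 10 for SGA HF against AGA HF, 0 to 3 for AGA HF against AGA CON and 0 to 2 for SGA HF against SGA CON. The highest counts came without HF pair 3, and for size the block reached the same count without CON pair 4. Calls over all genes rose too. With surrogate variables the share of all genes called ran from 0.086% to 7.75% for size, where at most 1 member was called. It ran from 0.0307% to 4.66% for diet and from 0.0184% to 2.05% for the interaction. For SGA HF against AGA HF it ran from 0.0184% to 6.81%. For AGA HF against AGA CON the range was 0.0369% to 4.54%, and for SGA HF against SGA CON 0.0307% to 2.4%. With the block the share ran from 0.876% to 4.72% for size and from 0.074% to 1.03% for the interaction. For SGA HF against AGA HF the block had 0.246% to 3.15%. The median ran from -0.185 to -0.0233 for the interaction and from -0.0418 to 0.0405 for SGA CON against AGA CON. MRPL47 ran from -0.0470 to 0.148 and MRPL9 from -0.00904 to 0.131 for size. In the interaction MRPL49 ran from -0.00902 to 0.139, MRPS15 from -0.17 to 0.169 and MRPS24 from -0.00979 to 0.342, and on HF MRPS15 ran from -0.0786 to 0.116. TMM factors from all listed genes, the block with a litter left out, and left-out litters for contrasts other than size and diet were added after seeing the data. The first called 0 members. With 6 litters on each diet and members of low count such as MRPS12, small changes could not be resolved at this depth.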
